A study of Mus musculus with 20 samples.

Results

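A set of 10 receptor genes through which macrophages bind antibody-coated and complement-coated particles were followed across all 20 libraries of the series. They are the Fc gamma receptor genes Fcgr1, Fcgr2b, Fcgr3 and Fcgr4, the gene of their shared signalling chain Fcer1g, the chains of the complement-binding beta2 integrins Itgam, Itgax and Itgb2, and the receptors of the complement peptides C3a and C5a, C3ar1 and C5ar1. These 10 of the 56748 genes in each count table were chosen by name, with earlier results of these data known but no measured value in the rule, and all 10 passed the filter on low counts in both tables. Bulk poly(A) RNA-seq had been run in a pair of separate experiments. The first held wildtype (WT) and iNOS KO cells, labelled as bone marrow-derived macrophages (BMDM) of C57BL/6J mice aged 6 to 12 weeks and cultured with M-CSF (20 ng/mL). They were left unstimulated or given LPS at 50 ng/mL together with IFNγ at 30 ng/mL over 48 h, and every one of the 4 groups held 3 libraries. The second held WT and Akr1a1 KO cells of the mouse macrophage line RAW264.7, left unstimulated or given LPS at 50 ng/mL together with IFNγ at 10 ng/mL over the same 48 h, and every one of the 4 groups held 2 libraries. No group carried another allele or agent in the labels. iNOS is the inducible nitric oxide synthase, encoded by Nos2, and Akr1a1 is an aldo-keto reductase. The study's methods name the iNOS KO mouse strain as B6.129P2-Nos2tm1Lau/J and pool marrow by genotype. The same methods also describe RAW264.7 iNOS KO cells and take the RNA of the iNOS experiment from RAW264.7 cells. They describe 2 independent clonal replicates a group in the Akr1a1 experiment, whose KO line was made with CRISPR-Cas9, and do not say whether unstimulated and stimulated libraries of a letter share a clone.

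Fc gamma receptors bind the constant part of IgG. Fcgr1, the high-affinity receptor, Fcgr3 and Fcgr4 are activating receptors that signal through the immunoreceptor activation motif of the Fcer1g chain, whereas Fcgr2b carries an inhibitory motif that recruits phosphatases, so that the balance of both kinds sets the threshold for phagocytosis and cytokine release. Itgam (CD11b) and Itgax (CD11c) each pair with Itgb2 (CD18) to form complement receptors 3 and 4, which take up particles coated with the complement fragment iC3b. C3ar1 and C5ar1 are G protein-coupled receptors for the anaphylatoxins C3a and C5a, and IFNγ has long been known to raise Fcgr1 and Fcgr4 on macrophages.

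Each library labelled BMDM held between 15072109 and 18878107 counts, and each RAW264.7 library between 11876719 and 44583327. Levels are given as CPM, counts relative to the TMM-scaled library size within each experiment, and levels of different genes are compared only as CPM per kilobase of the gene length listed in the table. The targeted transcript Nos2 was at 10370.2 to 11533 CPM in stimulated WT and at 870.5 to 912 CPM in stimulated iNOS KO libraries (log2 fold change -3.64, adjusted p = 4.96e-15), so that transcript was still detected in the KO. Akr1a1 in Akr1a1 KO cells was at 21.8 and 206 CPM unstimulated and 212 and 370 CPM stimulated, against 427 and 488 and then 576 and 675 CPM in WT, which did not pass the test in either state (adjusted p = 0.56 and 0.643). Macrophage markers summed to 5477 to 12723 CPM in the libraries labelled BMDM and 3235 to 11443 CPM in RAW264.7 cells, but Mertk was at or under 6.59 CPM throughout. Pycard, which the RAW264.7 line is known not to express and primary macrophages do, was at or under 0.832 CPM in all 20 libraries, and the paper describes the iNOS KO RNA-seq as done in RAW264.7 cells, so the name BMDM is used here only as a label. Of the markers of other cell types, Ly6g was at 0 in every library labelled BMDM, and the mast cell, T cell, B cell and dendritic cell lists each summed to under 5 CPM in every library. S100a8 made up nearly all of the 6-gene neutrophil list and reached 34.5 to 60.9 CPM in WT and 37.2 to 42.8 CPM in iNOS KO cells under stimulation, with 3 of the 6 genes at 0 in both. The 4-gene NK cell list, at 0 in unstimulated libraries, summed to 9.50 to 9.93 CPM in stimulated WT and 24.9 to 37.1 CPM in stimulated iNOS KO libraries with Ncr1 and Gzma at 0. The 5-gene fibroblast list summed to 3.58 to 4.92 and 10.4 to 15.8 CPM in the same groups with Col3a1 at 0. The part of these transcripts in the receptor results was not tested, and in bulk RNA fewer cells of a type and less RNA per cell cannot be told apart. The stimulated iNOS KO library B stood apart from its replicates A and C, with a chi-square per gene of 28.8 and 36.8 against 6.61 between A and C, and leaving it out changed 1 call among the 50 made for the 10 receptor genes, that of C5ar1 on WT stimulation. Replicate pairs of RAW264.7 cells were at 15.5 to 68.6 per gene, with the stimulated WT pair farthest. The titles of the unstimulated B libraries of both RAW264.7 genotypes say stimulated, whereas their treatment field says unstimulated, which was used.

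Promoters of 9 of the 10 genes were found in RefSeq (GRCm38.p6), each from 250 bases before to 50 bases after the start site, and were searched on both strands for a core of the interferon response element (GAAANNGAA) and the PU box bound by PU.1 (GAGGAA). Over all 32851 promoters in that table these letters occurred in 8.56% and 28.3%. A match on the other strand is printed as its reverse complement. Of the 9, Fcgr4 and C5ar1 held a response element core, at positions -73 and -66 from the start site, and Fcgr1, Fcgr3, Fcgr4 and Itgam held a PU box. Of the 4 sequences shown, on the strand of the gene with matches in capitals, the regions are Fcgr1 (chr3:96293920-96294219, minus strand), Fcgr2b (chr1:170976022-170976321, minus strand), Fcgr4 (chr1:171018676-171018975, plus strand) and C5ar1 (chr7:16259289-16259588, minus strand). The first, second and last are printed as the genes higher in stimulated iNOS KO cells, and Fcgr4 as the gene that stimulation raised most in WT.
Fcgr1: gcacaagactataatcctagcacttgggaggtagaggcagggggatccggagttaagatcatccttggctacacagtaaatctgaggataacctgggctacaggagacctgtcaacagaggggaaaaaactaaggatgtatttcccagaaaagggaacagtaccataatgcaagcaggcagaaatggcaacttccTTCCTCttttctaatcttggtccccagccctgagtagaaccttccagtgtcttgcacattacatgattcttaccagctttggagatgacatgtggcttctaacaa
Fcgr2b: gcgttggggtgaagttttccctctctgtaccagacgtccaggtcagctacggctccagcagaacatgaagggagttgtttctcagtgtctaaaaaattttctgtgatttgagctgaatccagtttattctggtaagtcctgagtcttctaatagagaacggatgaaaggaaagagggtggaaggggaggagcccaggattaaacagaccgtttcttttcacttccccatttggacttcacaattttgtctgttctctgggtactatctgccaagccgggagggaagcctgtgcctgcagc
Fcgr4: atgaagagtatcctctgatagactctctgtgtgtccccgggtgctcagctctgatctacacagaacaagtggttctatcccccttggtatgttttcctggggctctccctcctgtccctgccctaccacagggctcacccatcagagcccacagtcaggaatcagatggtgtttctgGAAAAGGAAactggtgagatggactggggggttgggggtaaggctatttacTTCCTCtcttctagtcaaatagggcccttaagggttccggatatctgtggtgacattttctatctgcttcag
C5ar1: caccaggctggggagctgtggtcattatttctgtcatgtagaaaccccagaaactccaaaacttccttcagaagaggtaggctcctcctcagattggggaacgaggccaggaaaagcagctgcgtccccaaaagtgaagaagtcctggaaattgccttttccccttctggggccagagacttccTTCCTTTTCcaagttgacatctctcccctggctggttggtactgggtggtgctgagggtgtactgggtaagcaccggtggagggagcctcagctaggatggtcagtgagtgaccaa
No 2 matches overlapped in these 4 windows, and that of Fcgr2b held none. A match describes the letters in this window and is no measured binding site.

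Stimulation with LPS and IFNγ raised most of these transcripts, and under stimulation Fcgr1, Fcgr2b and C5ar1 were higher and Itgax, C3ar1, Fcgr3, Itgb2 and Fcer1g lower in iNOS KO than in WT cells. In the libraries labelled BMDM, 8 of the 10 genes rose and 1 fell on stimulation of WT cells at an adjusted p under 0.05 over the 18691 genes tested, where 32.4% of all genes rose and 28.5% fell. In iNOS KO cells 10 rose and 0 fell, beside 27.3% and 24.6% of all genes. Under stimulation iNOS KO cells had 3 of the 10 higher and 5 lower than WT cells, where 24.2% of all genes were higher and 24.2% lower. The change on stimulation itself was larger in KO for 4 and smaller for 3 of the 10 by the interaction test, beside 20.0% and 15.4% of all genes. Without stimulation 0 of the 10 were higher and 7 were lower in iNOS KO cells, where 1.88% of all genes were higher and 4.09% lower. No member was higher there at an unadjusted p under 0.05, and DESeq2 called the same number, 0 higher and 7 lower. The summed macrophage markers were at 7855 to 8205 CPM in unstimulated WT, 5477 to 5856 CPM in unstimulated KO, 7764 to 8709 CPM in stimulated WT and 11949 to 12723 CPM in stimulated KO libraries. The higher sum in stimulated KO cells did not hold gene by gene. Of the 7 markers 2 were higher and 4 lower there than in stimulated WT cells (median log2 fold change -0.27). Between unstimulated genotypes 0 were higher and 5 lower in KO cells. The part of these markers in the receptor results was not tested. Median log2 fold changes over the 10 genes were 2.05 on WT stimulation, 2.15 on KO stimulation, -0.11 between stimulated genotypes, -0.39 between unstimulated genotypes and 0.04 in the interaction. The medians over all genes tested were 0.071, -0.00032, -0.044, -0.012 and -0.018. The comparisons share libraries, so the counts are not independent of each other.

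**Figure D1:**
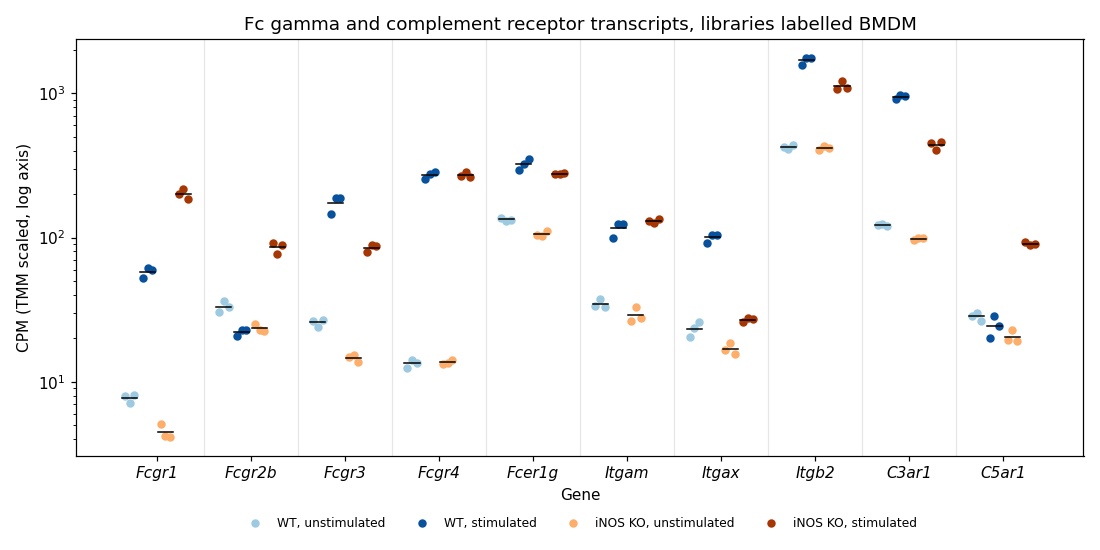
CPM on a log axis of the 10 receptor genes in the 12 libraries labelled BMDM, where each point is 1 library, each black line the mean of 3 and the colours mark WT and iNOS KO cells with and without stimulation. Fcgr1, Fcgr2b and C5ar1 lie highest in stimulated iNOS KO libraries, Itgax and C3ar1 lie highest in stimulated WT libraries, and Fcgr4 overlaps between the genotypes.

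Among the activating Fc gamma receptors, Fcgr1 (ENSMUSG00000015947, listed on chromosome 3 from 96190225 to 96201285, minus strand) was the gene with the largest rise in iNOS KO cells. Its level in libraries A, B and C was 7.93, 7.17 and 8.10 CPM in unstimulated WT, 52.6, 61.2 and 59.3 CPM in stimulated WT, 5.06, 4.23 and 4.15 CPM in unstimulated iNOS KO and 201, 218 and 186 CPM in stimulated iNOS KO cells. All 3 stimulated KO libraries lay above all 3 stimulated WT libraries, whereas the order was opposite without stimulation, with no overlap in either state. The log2 fold change of KO against WT was 1.81 (SE 0.085, adjusted p = 2.43e-11) stimulated and -0.79 (SE 0.12, adjusted p = 0.000336) unstimulated. On stimulation Fcgr1 rose 7.46-fold in WT and 45.0-fold in iNOS KO cells, and the difference of these responses was 2.59 (SE 0.14, adjusted p = 4.15e-10) on the log2 scale.

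Fcgr4 (ENSMUSG00000059089, chromosome 1 from 170846489 to 170857330, plus strand), the activating receptor for IgG2a and IgG2b, had the steepest induction in WT and was near equal between genotypes. It was at 12.5, 14.1 and 13.5 CPM in unstimulated WT and 256, 276 and 286 CPM in stimulated WT libraries, and at 13.2, 13.5 and 14.2 CPM in unstimulated and 268, 284 and 262 CPM in stimulated iNOS KO libraries. Genotypes overlapped in both states, and states did not overlap in either genotype. The rise was 20.4-fold in WT and 19.8-fold in KO cells, log2 fold changes of 4.35 (SE 0.079, adjusted p = 3.9e-17) and 4.31 (SE 0.079, adjusted p = 5.92e-17). Between stimulated genotypes the log2 difference was -0.0083 with a 95% interval from -0.15 to 0.13 (adjusted p = 0.941). A small nuclear RNA gene, Gm26110, lies inside Fcgr4 on the same strand and held 0 to 4 counts a library. The 95% interval of the interaction was -0.26 to 0.18.

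Fcgr3 (ENSMUSG00000059498, chromosome 1 from 170878743 to 170892504, minus strand), the low-affinity activating receptor, was induced in both genotypes and stayed lower in KO cells in both states. Its libraries held 26.4, 24.1 and 27.0 CPM in unstimulated and 146, 188 and 189 CPM in stimulated WT cells, against 14.8, 15.4 and 13.7 CPM and 78.7, 89.0 and 87.3 CPM in iNOS KO cells. Every KO library was below every WT library of the same state. KO was 2.05-fold lower with stimulation (log2 -1.04, SE 0.094, adjusted p = 8.39e-08) and 1.77-fold lower without it (log2 -0.82, SE 0.10, adjusted p = 7.44e-05). The responses of both genotypes differed by -0.21 (95% interval -0.51 to 0.083, adjusted p = 0.269), which passed the test only when the stimulated WT library A was left out (log2 -0.33, adjusted p = 0.038).

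Fcgr2b (ENSMUSG00000026656, chromosome 1 from 170786186 to 170804116, minus strand), the inhibitory receptor, was the only member that fell on WT stimulation past the test, and in iNOS KO cells stimulation raised it. WT libraries held 30.4, 36.4 and 32.9 CPM unstimulated and 20.6, 22.8 and 23.0 CPM stimulated, whereas KO libraries held 25.3, 22.9 and 22.4 CPM unstimulated and 92.2, 77.1 and 89.2 CPM stimulated. No pair of groups that differed in genotype or state alone overlapped. The log2 fold change on stimulation was -0.58 (SE 0.10, adjusted p = 4.91e-05) in WT and 1.87 (SE 0.093, adjusted p = 2.76e-11) in KO cells, and their difference was 2.46 (SE 0.13, adjusted p = 3.29e-10). Stimulated KO cells had 3.89-fold more Fcgr2b than stimulated WT cells (log2 1.96, SE 0.10, adjusted p = 3.58e-11), and unstimulated KO cells had 1.41-fold less (log2 -0.50, SE 0.094, adjusted p = 0.0031). Fcgr2b and Fcgr3 code for near-identical IgG-binding parts. In all, 166 stretches of 50 bases occurred in the GENCODE transcripts of both, 9.58% of the distinct stretches of Fcgr3 and 2.92% of those of Fcgr2b, so reads there could be assigned to either gene. Counted against every other gene, 395 stretches of Fcgr2b (6.95%) were shared, over 146 genes.

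Fcer1g (ENSMUSG00000058715, chromosome 1 from 171057141 to 171061934, minus strand), the common signalling chain, changed the least among the Fc receptor genes between stimulated genotypes other than Fcgr4. It ranged from 130.4 to 137 CPM in unstimulated and 292 to 348 CPM in stimulated WT cells, and from 102 to 111 CPM and 275 to 279.7 CPM in KO cells. KO libraries were below WT libraries in both states, without overlap. KO was lower by a log2 fold change of -0.21 (SE 0.067, adjusted p = 0.014) with stimulation and -0.33 (SE 0.068, adjusted p = 0.00558) without, of which the former was lost without the stimulated WT library C (adjusted p = 0.0847). The induction was 2.41-fold in WT and 2.62-fold in KO cells (interaction 0.12, adjusted p = 0.38). Per kilobase, Fcer1g was 5.17 to 5.57 times the sum of Fcgr1, Fcgr3 and Fcgr4 in unstimulated WT and 5.50 to 6.11 times that sum in unstimulated KO libraries. The ratio was 1.06 to 1.11 in stimulated WT and 0.870 to 0.968 in stimulated KO libraries.

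The balance of activating to inhibitory receptor transcripts, taken as the summed CPM per kilobase of Fcgr1, Fcgr3 and Fcgr4 over that of Fcgr2b, was described without a test. It was 5.38, 4.44 and 5.18 in the unstimulated WT libraries and 4.80, 5.38 and 5.38 in the unstimulated KO libraries, which overlapped. After stimulation it was 86.5, 89.4 and 90.5 in WT and 21.1, 27.2 and 21.5 in KO libraries, so that every stimulated library was above every unstimulated library and the KO libraries were all below the WT libraries. The numerator was alike, at 308 to 359.7 CPM per kilobase in stimulated WT and 331 to 362 in stimulated KO libraries, while the denominator was 3.56 to 3.98 and 13.3 to 15.9. Within the numerator, Fcgr4 contributed 217 ± 12.4 CPM per kilobase in stimulated WT cells (SD, n = 3), Fcgr3 100.4 ± 14.0 and Fcgr1 22.3 ± 1.73. In stimulated KO cells Fcgr4 stood at 216 ± 9.19, Fcgr1 at 77.9 ± 6.22 and Fcgr3 at 49.0 ± 3.17 CPM per kilobase, so Fcgr1 and Fcgr3 changed places.

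**Figure D2:**
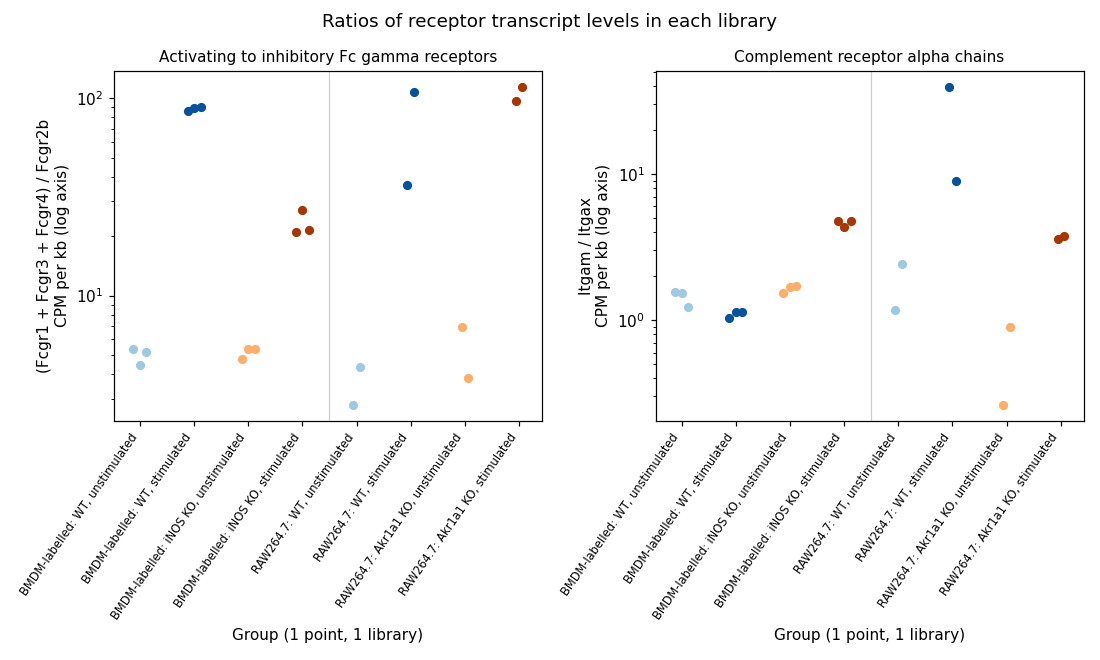
Ratios of CPM per kilobase in each library on log axes, the sum of Fcgr1, Fcgr3 and Fcgr4 over Fcgr2b (left) and Itgam over Itgax (right), with 1 point per library and groups along the axis. In the libraries labelled BMDM the left ratio is 86.5 to 90.5 in stimulated WT and 21.1 to 27.2 in stimulated iNOS KO, and the right ratio is 1.04 to 1.14 and 4.33 to 4.76.

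Among the beta2 integrin chains, Itgax (ENSMUSG00000030789, chromosome 7 from 127728719 to 127749829, plus strand), the alpha chain of complement receptor 4, was the member furthest below WT in stimulated iNOS KO cells. Its level was 20.4, 23.5 and 26.0 CPM in unstimulated and 91.5, 104 and 104 CPM in stimulated WT libraries, and 16.6, 18.7 and 15.6 CPM in unstimulated and 26.0, 27.7 and 27.2 CPM in stimulated KO libraries. All stimulated KO libraries lay far below all stimulated WT libraries and only just above those of unstimulated KO cells. KO was 3.71-fold lower when stimulated (log2 -1.89, SE 0.10, adjusted p = 6.48e-11). Stimulation raised Itgax 4.30-fold in WT and 1.59-fold in KO cells, a difference of -1.44 (SE 0.14, adjusted p = 3.53e-07) on the log2 scale. The lower unstimulated level in KO cells (log2 -0.46, SE 0.10, adjusted p = 0.00937) was lost without the unstimulated WT library C (adjusted p = 0.0724) or the unstimulated KO library C (adjusted p = 0.0664). In GENCODE, 8.02% of the 50-base stretches of Itgax also occurred in Itgad, a neighbouring alpha chain gene.

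Itgam (ENSMUSG00000030786, chromosome 7 from 127661812 to 127717663, plus strand), the alpha chain of complement receptor 3, kept its induction in KO cells. WT libraries held 33.4, 37.4 and 33.2 CPM unstimulated and 99.2, 125 and 124 CPM stimulated, and KO libraries 26.5, 33.1 and 27.9 CPM unstimulated and 129, 125 and 135 CPM stimulated. KO libraries were just above WT when stimulated and just below when unstimulated, without overlap in either state. Neither difference passed the test, at a log2 fold change of 0.16 (SE 0.10, adjusted p = 0.181) stimulated and -0.25 (SE 0.10, adjusted p = 0.204) unstimulated. The larger response of KO cells, 4.45-fold against 3.35-fold, passed it narrowly (log2 difference 0.41, SE 0.14, adjusted p = 0.0297), and was lost when any of 6 libraries was left out, namely unstimulated WT B, stimulated WT A, unstimulated KO A or C and stimulated KO A or C (adjusted p from 0.0537 to 0.0878). A gene annotated as Gm49368 overlaps Itgam on the same strand and shares 66.3% of its 50-base stretches, but held only 0 to 21 counts a library here.

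Itgb2 (ENSMUSG00000000290, chromosome 10 from 77366086 to 77401542, plus strand), the common beta chain, was at 412 to 436 CPM in unstimulated WT and 408 to 431 CPM in unstimulated KO libraries, which overlapped (log2 -0.012, 95% interval -0.15 to 0.12). Stimulated libraries held 1569 to 1762 CPM in WT and 1078 to 1227 CPM in KO cells, with every KO library below every WT library. The log2 fold change was -0.58 (SE 0.064, adjusted p = 8.85e-07) between stimulated genotypes, and the interaction was -0.57 (SE 0.091, adjusted p = 9.07e-05). The rise was 4.01-fold in WT and 2.70-fold in KO cells. Per kilobase, both alpha chains together made up 0.0755 to 0.0807 of Itgb2 in stimulated WT and 0.0764 to 0.0909 in stimulated KO libraries, while Itgam over Itgax was 1.04, 1.14 and 1.14 in stimulated WT and 4.76, 4.33 and 4.74 in stimulated KO libraries. Without stimulation that ratio was 1.22 to 1.56 in WT and 1.52 to 1.71 in KO libraries.

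Between stimulated genotypes the anaphylatoxin receptors differed in opposite directions. C3ar1 (ENSMUSG00000040552, chromosome 6 from 122824097 to 122833120, minus strand) was at 123, 125 and 120.0 CPM in unstimulated and 909, 978 and 964 CPM in stimulated WT libraries, and at 96.4, 99.0 and 99.1 CPM and 450.3, 404 and 463 CPM in KO libraries. Both states were lower in KO without overlap, by 2.16-fold when stimulated (log2 -1.11, SE 0.061, adjusted p = 1.66e-10) and 1.25-fold when not (log2 -0.32, SE 0.062, adjusted p = 0.00372). Its induction was 7.74-fold in WT and 4.47-fold in KO cells, with a log2 difference of -0.79 (SE 0.087, adjusted p = 1.63e-06). Over the same libraries C5ar1 (ENSMUSG00000049130, chromosome 7 from 15980668 to 15993465, minus strand) was at 28.4, 30.1 and 26.5 CPM in unstimulated and 20.1, 28.5 and 24.5 CPM in stimulated WT libraries, and at 19.5, 22.8 and 19.3 CPM and 93.3, 88.8 and 90.3 CPM in KO libraries. WT states overlapped, whereas all stimulated KO libraries lay above every other library. C5ar1 was 3.73-fold higher in stimulated KO than in stimulated WT cells (log2 1.90, SE 0.11, adjusted p = 2.47e-10), and it rose 4.43-fold on stimulation of KO cells. In WT the response was -0.22 (SE 0.11, adjusted p = 0.0947), which passed the test without stimulated WT library B (log2 -0.35, adjusted p = 0.0128) or stimulated KO library B (log2 -0.22, adjusted p = 0.0432). The difference of the responses was 2.37 (SE 0.15, adjusted p = 2.85e-09). The lower unstimulated level in KO cells (log2 -0.47, SE 0.11, adjusted p = 0.014) was lost without unstimulated WT library A or B or unstimulated KO library A or C (adjusted p from 0.0557 to 0.086).

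**Figure D3:**
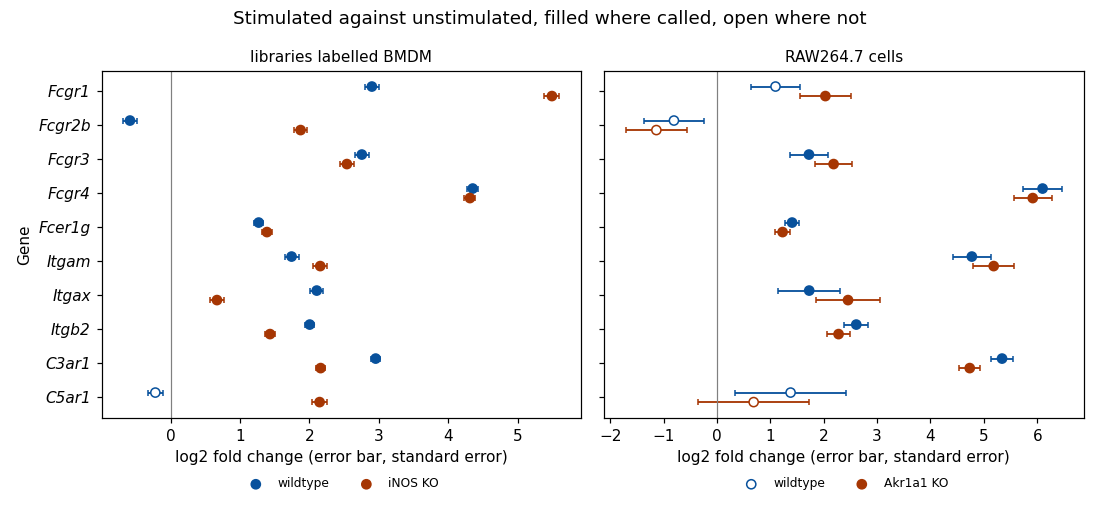
Log2 fold change of stimulated against unstimulated cells with its standard error for the 10 genes, in WT (blue) and KO (brown) cells of each experiment, with filled points where the adjusted p was under 0.05. In the libraries labelled BMDM, Fcgr1 moves from 2.90 in WT to 5.49 in iNOS KO cells, Fcgr2b from -0.58 to 1.87 and Itgax from 2.10 to 0.67, whereas Fcgr4 is at 4.35 and 4.31.

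In RAW264.7 cells stimulation raised 7 of the 10 genes in WT and lowered 0 over the 19569 genes tested, where 18.5% of all genes rose and 19.2% fell, and it raised 8 and lowered 0 in Akr1a1 KO cells, beside 19.8% and 19.4%. The median log2 fold changes over the 10 genes were 1.73 and 2.23, against -0.028 and 0.024 over all genes tested. Fcgr4 was at 3.49 and 2.19 CPM in unstimulated and 221 and 149 CPM in stimulated WT libraries A and B, a 68.6-fold rise (log2 6.10, SE 0.36, adjusted p = 9.15e-06), and at 4.32 and 2.54 CPM and then 175 and 223 CPM in KO libraries. Genotypes overlapped in both states. C3ar1 rose from 31.6 and 26.6 CPM to 1208 and 1144 CPM in WT and from 50.0 and 43.1 CPM to 1075 and 1401 CPM in KO cells, log2 fold changes of 5.34 (SE 0.21, adjusted p = 1.87e-06) and 4.74 (SE 0.20, adjusted p = 2.78e-06). No stimulated library overlapped with an unstimulated one for either gene. Itgb2 increased 6.10-fold in WT and 4.85-fold in KO cells, and Fcer1g 2.65-fold and 2.35-fold. Itgam increased 27.4-fold and 36.4-fold. These 5 genes and Fcgr3 kept their calls in both genotypes whichever of the 8 libraries was left out.

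In RAW264.7 cells all Akr1a1 KO libraries lay below WT libraries of the same state for Itgam and above them for Fcgr3, and only Itgam without stimulation passed the test. Between stimulated genotypes 0 of the 10 genes passed edgeR's quasi-likelihood test, where 0.0869% of all genes were higher and 0.199% lower in Akr1a1 KO cells, 2 had an unadjusted p under 0.05 and DESeq2 called those 2, Fcgr3 and Itgam. Without stimulation 0 were higher and 1, Itgam, was lower, beside 0.230% and 0.353% of all genes, and 3 genes, Itgam, Fcgr3 and C3ar1, had an unadjusted p under 0.05 and were called by DESeq2. The interaction called 0 higher and 0 lower, beside 0.00511% and 0.0153% of all genes, with 1 gene, C3ar1, at an unadjusted p under 0.05 and 0 called by DESeq2. These shares of all genes are edgeR calls, so they give no background for the counts by unadjusted p or DESeq2. Medians over the 10 genes were -0.062 stimulated, -0.068 unstimulated and -0.18 in the interaction, against 0.0051, -0.023 and 0.029 over all genes tested. Summed macrophage markers were at 3235 and 3413 CPM in unstimulated KO against 4306 and 4779 CPM in unstimulated WT libraries, lower without overlap. Under stimulation they were at 4687 and 8398 CPM in KO against 11297 and 11443 CPM in WT libraries. Of 6 macrophage markers tested, edgeR called 0 higher and 1 lower in stimulated KO cells (log2 fold changes from -1.17 to 0.42). Between unstimulated genotypes it called 0 of them. The 6-gene neutrophil list summed to 248 and 419.7 CPM in stimulated KO against 121 and 144 CPM in stimulated WT libraries. Of its 3 tested genes 0 were called there, and 4 of the 6 were at or under 3 counts in each of these groups. The part of these markers in the receptor differences was not tested. Itgam was at 11.3 and 18.2 CPM in unstimulated WT and 1.81 and 4.10 CPM in unstimulated KO libraries (155 and 845 against 23 and 118 counts), and at 404 and 413 CPM and 95.4 and 134 CPM in stimulated WT and KO libraries. KO libraries were below WT libraries in both states with no overlap. Its log2 fold change was -2.25 (SE 0.36, adjusted p = 0.0417) unstimulated and -1.84 (SE 0.32, adjusted p = 0.0813) stimulated, and the unstimulated call was kept only when either stimulated WT library was left out, with an adjusted p of 0.0437 to 0.242 over the 8 libraries left out in turn. The overlapping Gm49368 held 0 to 64 counts in these libraries.

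Fcgr3 was low in RAW264.7 cells, at 1.23 and 2.39 CPM in unstimulated and 7.96 and 4.67 CPM in stimulated WT libraries (17 and 111 counts unstimulated, 107 and 83 stimulated), and at 6.99 and 6.23 CPM and 27.4 and 32.6 CPM in KO libraries. Every KO library lay above every WT library of its state. The log2 difference was 2.25 (SE 0.35, adjusted p = 0.0558) stimulated and 1.79 (SE 0.36, adjusted p = 0.102) unstimulated, and it passed the test stimulated without unstimulated WT A or stimulated WT A (adjusted p = 0.0468 and 0.0387) and unstimulated without stimulated WT A or B (adjusted p = 0.0427 and 0.0436). Stimulation raised Fcgr3 3.30-fold in WT and 4.55-fold in KO cells. Fcgr1 stood at 33.7 and 85.1 CPM and 169 and 87.5 CPM in unstimulated and stimulated WT libraries, and at 62.8 and 47.9 CPM and 167 and 284 CPM in KO libraries. Stimulated libraries were above unstimulated ones in both genotypes, by a log2 fold change of 1.10 (SE 0.47, adjusted p = 0.099) in WT, called without unstimulated WT B or stimulated WT B (adjusted p = 0.0239 and 0.0406), and 2.03 (SE 0.48, adjusted p = 0.0101) in KO cells, lost without unstimulated or stimulated KO B (adjusted p = 0.0788 and 0.0616). Its genotype differences had 95% intervals of -0.24 to 1.88 stimulated and -1.18 to 0.95 unstimulated.

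Itgax, Fcgr2b and C5ar1 were the members on which the stimulated WT libraries of RAW264.7 cells disagreed. Itgax was at 9.74 and 43.8 CPM in stimulated WT A and B, against 9.22 and 7.12 CPM unstimulated, and at 6.60 and 4.38 CPM and 25.5 and 34.0 CPM in unstimulated and stimulated KO libraries. WT library A hardly left the unstimulated range while B was above both KO libraries. The stimulation change was 1.73 (SE 0.59, adjusted p = 0.0478) in WT, lost in 7 of 8 leave-outs (all but stimulated WT A, adjusted p = 0.000533 to 0.511), and 2.46 (SE 0.61, adjusted p = 0.0127) in KO cells, lost without unstimulated or stimulated KO B (adjusted p = 0.0971 and 0.0644). Fcgr2b was at 34.3 and 48.0 CPM in unstimulated WT, 39.2 and 8.33 CPM in stimulated WT, 26.4 and 36.4 CPM in unstimulated KO and 13.1 and 15.5 CPM in stimulated KO libraries. Its log2 change on stimulation was -0.81 (SE 0.57, adjusted p = 0.302) in WT and -1.13 (SE 0.58, adjusted p = 0.157) in KO cells, and it passed the test in WT without stimulated WT A (log2 -2.24, adjusted p = 0.000762) and in KO without stimulated WT A or B (adjusted p = 0.00358 and 0.00358). C5ar1 was at 32.5 and 5.42 CPM in unstimulated and 89.3 and 7.49 CPM in stimulated WT libraries, so that library A exceeded library B in both states, and at 9.82 and 15.5 CPM and 23.0 and 18.1 CPM in KO libraries. Its standard errors were 1.04 to 1.46 on the log2 scale in all 5 comparisons, and none passed the test, in a fit that does not pair libraries by letter. With a replicate block within genotype, on 2 pairs each, edgeR called its rise in WT (log2 1.00, adjusted p = 0.00823) and KO cells (log2 0.70, adjusted p = 0.0496). The activating to inhibitory ratio was 2.79 and 4.34 in unstimulated WT, 36.3 and 108 in stimulated WT, 6.96 and 3.84 in unstimulated KO and 96.7 and 114 in stimulated KO libraries, rising with stimulation and overlapping between genotypes, and Itgam over Itgax was 39.7 and 9.02 in stimulated WT and 3.58 and 3.76 in stimulated KO libraries.

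**Figure D4:**
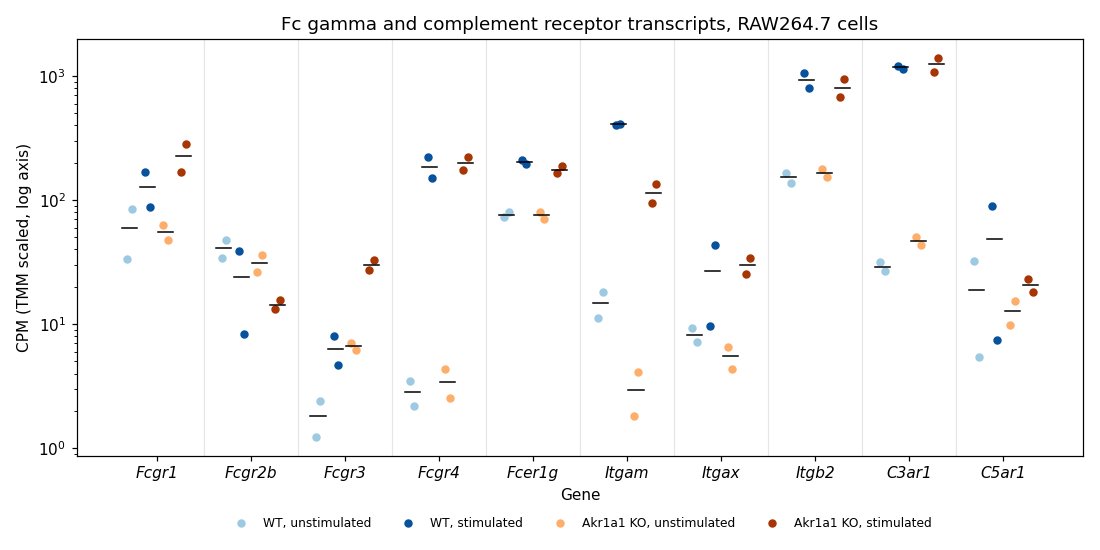
CPM on a log axis of the 10 receptor genes in the 8 libraries of RAW264.7 cells, where each point is 1 library and each black line the mean of 2, in WT and Akr1a1 KO cells with and without stimulation. Itgam lies lower and Fcgr3 higher in Akr1a1 KO libraries in both states, and the stimulated WT points are far apart for Fcgr2b, Itgax and C5ar1.

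**Figure D5:**
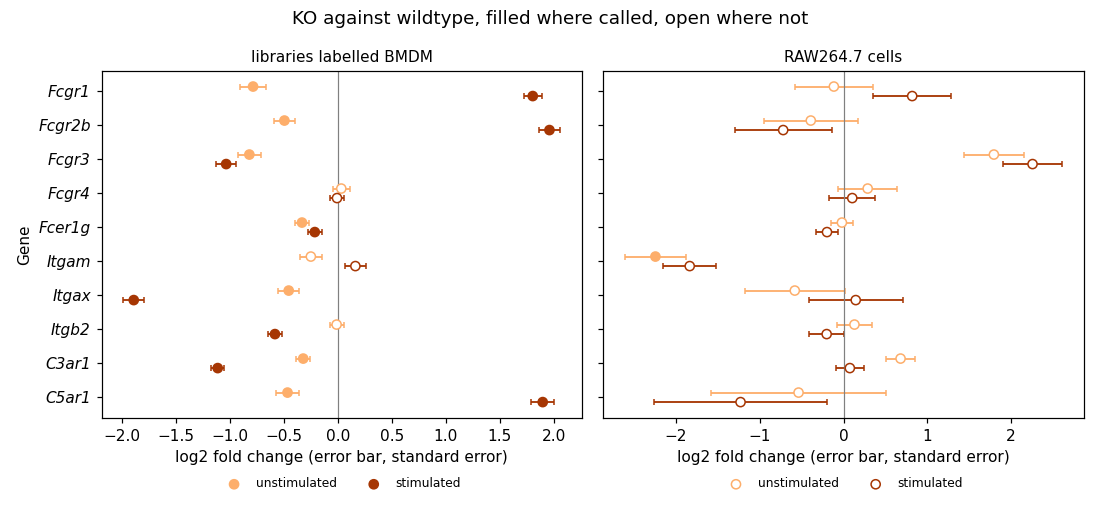
Log2 fold change of KO against WT with its standard error for the 10 genes, unstimulated (light) and stimulated (dark), with filled points where the adjusted p was under 0.05 and separate horizontal scales for the experiments. In the libraries labelled BMDM, Fcgr1, Fcgr2b and C5ar1 lie at 1.81, 1.96 and 1.90 when stimulated and below 0 when not, and in RAW264.7 cells only Itgam at -2.25 without stimulation is filled.

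Other genes of the Fc receptor pathway were read from lists, and values in parentheses after a gene are log2 fold changes that passed the test. The counts stand beside 32.4% of all genes that rose and 28.5% that fell on WT stimulation in the libraries labelled BMDM, 24.2% higher and 24.2% lower in iNOS KO cells under stimulation, and 18.5% that rose and 19.2% that fell on WT stimulation of RAW264.7 cells. No share of all genes is given for the list counts by unadjusted p or DESeq2. Of 24 genes of Fc receptor signalling (kinases, adaptors and phosphatases), 15 rose and 6 fell on WT stimulation in the libraries labelled BMDM, with a median log2 fold change of 0.87, and 11 were higher and 9 lower than WT in iNOS KO cells under stimulation (median -0.11). Src (2.74) and Syk (2.45), kinases of the activation motif, and the ubiquitin ligase Cblb (1.70) rose most. Between stimulated genotypes the largest differences were those of the PI3K subunits Pik3r1 (-1.50) and Pik3cd (1.08), the phosphatase Ptpn6 (1.28), which acts downstream of inhibitory receptors, and the kinase Fgr (1.22). In RAW264.7 cells 15 of the 24 rose and 3 fell on WT stimulation (median 0.69), again with Src (6.85) and Syk (2.97) among the largest. Between stimulated genotypes edgeR called 0 of the 24, 2 had an unadjusted p under 0.05 and DESeq2 called 1.

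Of 12 myeloid receptors with inhibitory motifs, 11 rose and 0 fell on WT stimulation in the libraries labelled BMDM (median 1.10, with genes at 3 counts or fewer in a group set to a floor of 3 counts), beside 32.4% and 28.5% of all genes, among them Pilra (3.14), Lilrb4b (2.15) and Cd300lf (1.95). In stimulated iNOS KO cells 3 of them, with Siglece (1.45) first, were higher and 9 lower, beside 24.2% of all genes each way (median -0.74), such as Clec4a2 (-1.14). Of 11 tested adaptors and receptors that signal through activation motifs, 4 were higher and 5 lower than WT in iNOS KO cells under stimulation, with the beta-glucan receptor Clec7a at -2.73 and Cd247 at 2.70, and 8 rose and 3 fell on WT stimulation. Other Fc-binding or Fc receptor-like genes gave 5 tested genes. Of these the cytosolic antibody receptor Trim21 rose on WT stimulation (3.66), and the Fc receptor-like gene Fcrl1 (-1.38) and the neonatal receptor Fcgrt (-0.63) fell. In stimulated KO cells 2 of them were higher and 0 lower. In RAW264.7 cells WT stimulation raised 7 of 12 receptors with inhibitory motifs, 4 of 10 with activation motifs and 2 of 6 other Fc-binding or Fc receptor-like genes, and lowered 0, 2 and 0, beside 18.5% and 19.2% of all genes. Between stimulated genotypes edgeR called 0 in each of these 3 lists, with 2, 0 and 1 at an unadjusted p under 0.05 and 2, 0 and 0 called by DESeq2.

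Among 16 other integrins and integrin activators in the libraries labelled BMDM, 11 rose and 4 fell on WT stimulation, beside 32.4% and 28.5% of all genes. In iNOS KO cells under stimulation 7 were higher and 7 lower than WT (median -0.15), beside 24.2% of all genes each way. Itgal, the CD11a partner of Itgb2, was higher in stimulated KO cells (1.46), as were the ligand Icam2 (2.86) and Itga4 (1.34), and Itgb3 was lower (-2.55). Of 8 other complement receptors and regulators, 3 rose and 4 fell on WT stimulation and 4 were higher and 1 lower in stimulated KO cells, where 3 of 8 is close to the 32.4% of all genes that rose. Among them was Cd93 (-4.58 on WT stimulation and 2.07 in stimulated KO cells). Of 15 complement components tested, 8 rose and 1 fell on WT stimulation, but 9 of the 15 held 3 counts or fewer in every library of a group, and with these at that floor the median was 1.06. Factor B (Cfb) went from 0 to 0.0498 CPM to 4.65 to 5.54 CPM in WT and to 7.97 to 11.8 CPM in stimulated KO cells. The C1q chains, which open the classical pathway on IgG complexes, were low, with C1qb at 0.623 to 0.878 CPM in stimulated WT and 8.16 to 9.01 CPM in stimulated KO libraries (log2 3.60) and C1qc at 0.208 to 0.675 and 4.56 to 5.43 CPM. In stimulated KO cells 8 of the 15 were higher and 1 lower. In RAW264.7 cells 9 of 17 integrin genes rose and 3 fell on WT stimulation, 3 of 10 complement receptors rose and 1 fell, and 4 of 10 complement components rose and 2 fell, beside 18.5% and 19.2% of all genes. Between stimulated genotypes edgeR called 0 in each list, with 3, 1 and 2 at an unadjusted p under 0.05 and 1, 0 and 1 called by DESeq2.

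Protein-coding genes with the most similar pattern over the 12 libraries labelled BMDM were found by Pearson's r of log2 CPM, a description dominated by the 4 groups that the libraries share. Fcgr1 was most like Arid5b (r = 0.997), a chromatin regulator, and Sod2 (0.996), the mitochondrial superoxide dismutase, with 0.842 and 0.877 over the 8 RAW264.7 libraries, and Fcgr4 was most like H2-T23 (1.00), a nonclassical MHC class I gene, with 0.965 in RAW264.7 cells. Fcgr2b and C5ar1 shared Acsl5 (a fatty acid activating enzyme) among their nearest 3, at 0.982 and 0.988, but over RAW264.7 libraries these were 0.799 and -0.290. Itgb2 followed Nckap1l, a subunit of the actin-regulating WAVE complex of blood cells, at 0.999 and 0.992 over RAW264.7 libraries, and C3ar1 followed Basp1 at 0.999 and 0.996. For the other members the nearest genes were Ninj1 for Fcgr3 (0.997), Cd300lf for Fcer1g (0.998), Irak3 for Itgam (0.995) and Slc35f6 for Itgax (0.997), with 0.513, 0.912, 0.957 and 0.616 over RAW264.7 libraries.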

How the data were processed

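Poly(A) RNA-seq of 20 libraries was analysed from gene counts. Per the labels and the study's methods, the authors checked reads with CASAVA, filtered them, mapped them with STAR to mm10 and summed reads per gene. The deposited tables are whole-number, raw read counts without normalization. The tables name no build and their positions differ from GRCm38, so positions are given as listed. Counting is not stated to use strand. All per-sample columns were used (0 left out).

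edgeR tests were run on genes whose counts summed to 10 or more, with version 4.0.16 under R 4.3.3 (TMM scaling, 1 mean per group over the 4 groups of an experiment, quasi-likelihood F tests, 2-sided, Benjamini-Hochberg adjustment over all genes tested). A gene was called at an adjusted p under 0.05 with no fold limit, and standard errors and 95% intervals come from the same fit. Shares of all genes are of these edgeR calls, and none is given for unadjusted p, DESeq2 or the other alternatives. edgeR's common dispersion was 0.00845 for BMDM-labelled and 0.0522 for RAW264.7 libraries. The script was tested on simulated data. Total counts ranged from 11876719 to 44583327.

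The members and the gene lists (Fc receptor signalling, other Fc-binding or Fc receptor-like genes, activation-motif and inhibitory-motif receptors, other integrins, other complement receptors, complement components and markers of other cell types) were chosen with earlier results of these data known. A further promoter motif is not reported here. Text names the 10 members, marker genes by list and genes overlapping a member. Of each list it names a few genes called in the stimulated KO or WT stimulation comparison, not always those with the largest change. For each member it names the nearest patterns among protein-coding genes with a mean log2 CPM over 3. Whether the labels' replicate letters pair libraries was checked by the correlation of deviations from group means. Unstimulated and stimulated iNOS KO libraries of the same letter correlated at 0.404, 0.497 and 0.121, while other same-letter pairs of the libraries labelled BMDM were not all above 0.1. Different letters could be as high, with unstimulated KO A and stimulated KO C at 0.402, so the check does not settle the pairing. In RAW264.7 cells same-letter libraries of both states were at 0.438 in WT and 0.103 in KO cells. The main fit paired no libraries, and replicate blocks were alternatives. No libraries were near-identical. Unless separate cultures or animals stand behind the letters, which the labels do not say, p-values measure the spread between these libraries only. Alternatives were DESeq2 1.42.0, its size factors, other count filters, a fold limit, replicate blocks and leaving out each library. Shared sequence was counted in GENCODE M21 transcripts. Python 3.11.15 and its matplotlib 3.10.9 drew the figures.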

Additional observations from a re-analysis of the deposited data

Results flagged for a closer look

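In the libraries labelled BMDM the response to stimulation differed between iNOS KO and WT cells for 7 of the 10 receptor genes by the interaction term of edgeR's quasi-likelihood test, each given as the log2 response of KO minus that of WT cells. It was larger in KO cells for Fcgr1 (2.59), Fcgr2b (2.46), C5ar1 (2.37) and Itgam (0.41), and smaller for Itgax (-1.44), C3ar1 (-0.79) and Itgb2 (-0.57). Over all genes tested the same term was larger in KO cells for 20.0% and smaller for 15.4%. Fcgr2b fell in WT (-0.58) and rose in KO cells (1.87), both past the test. C5ar1 was at -0.22 in WT, which did not pass the test, and rose in KO cells (2.15). Single genes were not tested for a library far from the others, as groups held 2 or 3 libraries.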

How the results depend on the processing

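In the libraries labelled BMDM, DESeq2, its size factors, filterByExpr, no count filter and the replicate block kept all calls of the 10 genes in all 5 comparisons. With an absolute log2 fold change over 1 as a limit, 0 members were called between unstimulated genotypes (7 without it) and 4 in the interaction (7 without it). The limit also ended the calls of Fcer1g and Itgb2 between stimulated genotypes (6 of 8 kept), Fcgr2b on WT stimulation (8 of 9) and Itgax on KO stimulation (9 of 10). In RAW264.7 cells the members called between stimulated genotypes (0) became 2 with DESeq2, 1 with size factors, 5 with no filter, 1 with the replicate block and 0 to 1 without 1 library. Those called between unstimulated genotypes (1) became 3 with DESeq2, 0 with filterByExpr, 3 with no filter and 0 to 2 without 1 library, and the interaction went from 0 to 1 with no filter. Stimulation calls went from 7 to 8 with DESeq2 (Fcgr1) and 10 with no filter in WT, and from 8 to 10 with no filter in KO cells, which added Fcgr2b as lower in both. Without a filter edgeR's median prior degrees of freedom were infinite, against 4.20 with it. The replicate block in RAW264.7 cells, whose letters are not stated to mark the same clone in both states, called Itgam between stimulated genotypes (log2 -1.88, adjusted p = 0.0203) and not Itgax on WT stimulation (adjusted p = 0.0713), and a replicate block within genotype, which rests on 2 pairs a genotype, also called Fcgr1 and C5ar1 (log2 1.00, adjusted p = 0.00823) in WT and C5ar1 (log2 0.70, adjusted p = 0.0496) and Fcgr2b in KO stimulation. The replicate block within genotype for the libraries labelled BMDM was added after the data were seen and changed no call. Changes of sign, none in a value that had passed the test, were those of Itgb2 between unstimulated BMDM-labelled genotypes (0.000342 with DESeq2, 0.000334 with size factors, 0.00637 with filterByExpr), Fcer1g between unstimulated RAW264.7 genotypes (0.00251 with DESeq2, 0.00451 with size factors), C5ar1 there (0.146 with the replicate block) and the Fcgr2b interaction (0.00827 with the block within genotype). Leaving out 1 library changed the sign of other values that had not passed the test, whose log2 ranges follow. For KO against WT, stimulated in the libraries labelled BMDM they were Fcgr4 -0.052 to 0.028. For KO against WT, unstimulated in the libraries labelled BMDM they were Fcgr4 -0.016 to 0.073 and Itgb2 -0.032 to 0.011. For the interaction in the libraries labelled BMDM they were Fcgr4 -0.084 to 0.0082. For KO against WT, stimulated in RAW264.7 cells they were Fcgr2b -1.47 to 0.75, Fcgr4 -0.17 to 0.38, Itgax -0.59 to 1.59, C3ar1 -0.14 to 0.22 and C5ar1 -2.13 to 1.43. For KO against WT, unstimulated in RAW264.7 cells they were Fcgr1 -0.62 to 0.71, Fcgr4 -0.091 to 0.67, Fcer1g -0.12 to 0.077 and C5ar1 -1.35 to 1.23. For WT stimulation in RAW264.7 cells they were C5ar1 -1.26 to 3.15. For the interaction in RAW264.7 cells they were Fcgr2b -1.11 to 1.11, Fcgr3 -0.15 to 0.84, Fcgr4 -0.57 to 0.19, Itgax -0.034 to 2.14 and C5ar1 -2.46 to 1.96. The cause of these changes was not tested. The standard errors of C5ar1 in RAW264.7 cells were the widest of the 10 genes with the filter on low counts.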
